A study of Mus musculus with 2 samples.

Results

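The genes described here encode SR proteins, heterogeneous nuclear ribonucleoproteins (hnRNPs), core spliceosome proteins and muscleblind proteins. They were taken as the protein-coding genes of both gene tables whose mouse symbol begins with Srsf, Hnrnp, Sf3a, Sf3b, U2af, Prpf or Snrp (a number must follow Srsf, Sf3 and Prpf), together with Mbnl1, Mbnl2 and Mbnl3. The rule gave 71 of 43346 genes. The RNA came from G1E, an immortalised mouse erythroid progenitor line labelled Gata1-, that is, without the transcription factor that drives red cell maturation (strain C57BL/6J, male, postnatal, 0 day). The 2 libraries were each made from 1 ng of total RNA above 200 nucleotides in length, and the labels number them as biological replicates 1 and 2 of a single group. With no second condition, each gene's level is described, and the only comparison is of one library with the other. Being 1 line, G1E gives no spread between animals.

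Most introns are removed by the major spliceosome, which is built from small nuclear ribonucleoproteins (snRNPs), each a small RNA held in a ring of Sm proteins. The U2 auxiliary factor and the SF3A and SF3B complexes mark the 3′ end of the intron and its branch point, and PRPF proteins then join with the U4, U5 and U6 particles and build the catalytic centre. SR proteins usually favour the use of an exon and hnRNPs often oppose it, and muscleblind proteins change sides with their position around the exon. Many genes of SR proteins and of core factors carry an exon or intron that brings an early stop codon into the message, which marks it for nonsense-mediated decay.

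In the G1E tables, Srsf3, Srsf6, Sf3b1, Prpf39, Prpf38b and Prpf3 each had a transcript annotated for nonsense-mediated decay with a TPM (transcript abundance per length, scaled to a fixed library sum) of 1 or more in each library whose stop codon lay in an internal exon missing from the main coding transcript, the coding transcript with the highest mean TPM. The sequences below run 5′ to 3′ from the first base of that exon to its stop codon, which is in capitals. They are printed because they bring the stop codon and belong to an exon missing from the main coding transcript. Other differences between the decay and coding forms are not shown. They were read on the gene's own strand from GRCm38 transcripts of the GENCODE M21 annotation.
Srsf3-201, chr17:29039454-29039909, plus strand: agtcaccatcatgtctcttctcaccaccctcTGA
Srsf6-201, chr2:162932815-162933082, plus strand: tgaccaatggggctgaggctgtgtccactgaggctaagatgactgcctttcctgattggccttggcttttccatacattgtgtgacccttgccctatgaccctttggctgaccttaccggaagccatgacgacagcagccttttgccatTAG
Sf3b1-208, chr1:55014869-55014924, minus strand: gcttctattctgctgctTGA
Prpf39-202, chr12:65043543-65043611, plus strand: gtgcgtTAA
Prpf38b-204, chr3:108910343-108910395, minus strand: gatTGA
Prpf3-203, chr3:95849695-95849790, minus strand: gagttccaggaagcgctcgcccctggcTGA
The coordinates are those of the whole exon. The exons were 53 (Prpf38b) to 456 bases long (Srsf3), and the stop codon ended between base 6 of the exon (Prpf38b) and base 152 (Srsf6). Between 116 (Sf3b1) and 1766 bases (Prpf39) of the transcript lay between the stop codon and the last exon junction. The stop was TGA in 4, TAA in 1 and TAG in 1. The exon of Srsf6 overlapped an exon of 1 of its 2 coding transcripts, while the other 5 exons overlapped no coding transcript of their gene.

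The libraries held 31649878 and 40597614 estimated counts, and nuclear protein-coding genes held 8513094 and 7669565 of them. The non-coding gene Gm42418, which overlaps a ribosomal RNA repeat, took 52.6% and 40.3%, and mitochondrial ribosomal RNA took 14.6% and 35.4%. TPM was 1.55-fold higher in replicate 1 for the median detected nuclear protein-coding gene, and every SD of TPM below contains that shift. The gene named in the label, Gata1 (chromosome X, 7959260 to 7978071), was listed at 798 and 649 counts, and a gene count does not show whether a complete message was made. All 10 erythroid progenitor markers were detected, led by Kit (175 and 115 TPM), while 4 of 4 lymphocyte markers and 4 of 5 markers of fibroblasts and endothelium were at 0 counts, the fifth being Pecam1 with 3 and 0. Of the 5 markers of macrophages and granulocytes none reached a TPM of 1, with at most 17 counts for any of them. Genes of the maturing red cell were listed because the libraries were already known to differ in them, so their difference is no test. All 8 were detected, and their summed level was 186 TPM in replicate 1 and 1528 TPM in replicate 2. Of the 8, 7 passed the library comparison described further on with the higher value in replicate 2, beside 5.12% of all tested genes.

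The splicing genes were expressed almost without exception. Counting as detected a gene that reached 1 TPM in each library, 70 of 71 were detected, against 8345 of 21461 nuclear protein-coding genes. The exception was Srsf12, an SR protein with restricted expression (chromosome 4, 33208991 to 33233340), with 0 counts in both libraries, which allows up to 0.0948 and 0.0739 CPM from counting error. The median of all 71 was 24.3 TPM in replicate 1 and 14.4 TPM in replicate 2, beside 9.31 and 6.08 TPM for the detected nuclear protein-coding genes. In both libraries 60 of the 71 lay above that median, and 25 lay above the 90th percentile. Together they held 160754 and 140213 estimated counts, or 1.89% and 1.83% of those on nuclear protein-coding genes. In bulk RNA, fewer cells of a type and less RNA per cell cannot be told apart.

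**Figure D1:**
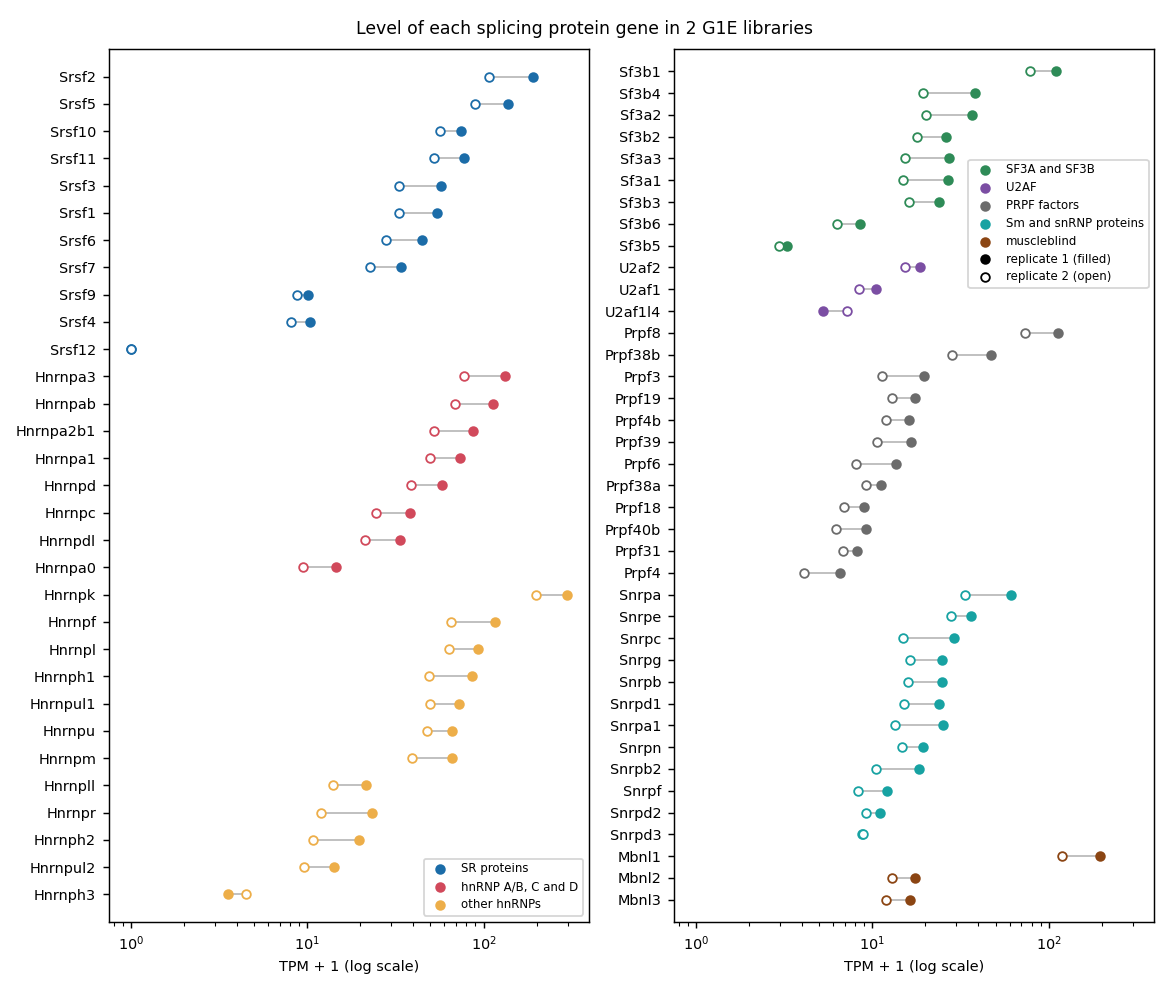
TPM + 1 on a log axis for 70 of the 71 genes, grouped by role and ordered by mean level, with replicate 1 filled, replicate 2 open and a line joining them. Replicate 1 lies to the right for 66 genes and replicate 2 for 3, Hnrnph3, U2af1l4 and Snrpd3, while Srsf12 sits at 0 TPM.

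SR proteins were among the most abundant of these messages. They bind exons through RNA recognition motifs and recruit other factors through serine and arginine repeats. The median of the 11 genes was 53.6 TPM in replicate 1 and 32.2 TPM in replicate 2. Srsf2, which acts in exon recognition and in release of paused polymerase, had 190 and 106 TPM (148 ± 59.4, SD, n = 2). Srsf5 had 137 and 87.9 TPM, Srsf10 73.8 and 56.0 TPM, and Srsf11 76.7 and 51.4 TPM. Both libraries put Srsf2 first and Srsf5 second. At the low end Srsf9 had 9.08 and 7.78 TPM and Srsf4 had 9.36 and 7.12 TPM, above only Srsf12. The order of the family was not the same in both libraries, since Srsf10 and Srsf11, Srsf3 and Srsf1, and Srsf9 and Srsf4 changed places, so these neighbours did not differ beyond their spread.

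The hnRNPs of the A/B, C and D type, abundant nuclear proteins that coat nascent RNA, had the highest group median in replicate 2 and nearly the highest in replicate 1, with 64.8 and 43.2 TPM over 8 genes. Hnrnpa3 had 130 and 76.8 TPM, Hnrnpab 112 and 67.6 TPM, Hnrnpa2b1 86.0 and 51.6 TPM and Hnrnpa1 72.7 and 48.7 TPM. Hnrnpa0, an intronless relative, was the lowest of the A/B family with 13.5 and 8.51 TPM, and both libraries gave these 5 genes the same order. Hnrnpd, also known as AUF1 and tied to the turnover of AU-rich messages, had 56.96 and 37.57 TPM. Its relative Hnrnpdl had 32.7 and 20.2 TPM, and Hnrnpd was 1.74-fold and 1.86-fold higher. Hnrnpc, which binds uridine tracts, had 37.5 and 23.7 TPM.

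The other 12 hnRNPs had a median of 65.2 and 42.4 TPM and the widest range. Hnrnpk, a poly(C)-binding protein (chromosome 13, 58391142 to 58403343), was the highest of all 71 genes with 298 and 196 TPM (247 ± 72.1, SD, n = 2). Among the F and H proteins, which bind G-rich elements, Hnrnpf had 115 and 64.7 TPM, Hnrnph1 85.4 and 48.1 TPM, Hnrnph2 18.6 and 9.81 TPM and Hnrnph3 2.55 and 3.51 TPM. The order F, H1, H2, H3 was the same in both libraries. Hnrnpl, which binds CA repeats, had 92.3 and 62.9 TPM and exceeded its relative Hnrnpll, which had 20.6 and 13.0 TPM, by 4.49-fold and 4.84-fold. In the U family, Hnrnpul1 (71.9 and 48.7 TPM) and Hnrnpu (65.5 and 46.6 TPM) were close, at 1.10-fold and 1.05-fold, and Hnrnpul2 followed with 13.1 and 8.66 TPM.

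The subunits that hold the branch point were led by Sf3b1, the scaffold of SF3B that contacts the branch helix, with 109 and 77.4 TPM (93.1 ± 22.3, SD, n = 2). The median of the 9 SF3A and SF3B genes was 25.9 and 15.1 TPM. Sf3b4 had 37.4 and 18.5 TPM, Sf3a2 35.8 and 19.2 TPM, and Sf3b2 25.4 and 16.9 TPM. Sf3b3 (22.9 and 15.1 TPM), Sf3b6 (7.58 and 5.35 TPM), which lies at the branch adenosine, and Sf3b5 (2.30 and 1.95 TPM) were the lowest 3 by mean TPM. Messages for subunits of the same complex thus covered a wide range of TPM. TPM depends on transcript length, and by counts Sf3b5 (182 and 213) lay above Sf3b6 (161 and 156). The U2AF genes were lower, with a median of 9.50 and 7.47 TPM. U2af2, the large subunit that reads the polypyrimidine tract, had 17.6 and 14.4 TPM, 1.85-fold and 1.92-fold the level of U2af1, the small subunit that reads the AG at the 3′ splice site, with 9.50 and 7.47 TPM. U2af1l4, a shorter relative of U2af1, was listed at 4.27 and 6.22 TPM from 94.2 and 120 counts, below the deposited credibility intervals of 7.10 to 11.5 and 7.51 to 11.1 TPM, so its level is uncertain.

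Among the 13 PRPF genes Prpf8 stood first. It encodes the protein that cradles the catalytic RNA and had 112 and 72.3 TPM (92.2 ± 28.1, SD, n = 2), against a group median of 15.2 and 9.65 TPM. Prpf38b had 45.9 and 27.5 TPM and its relative Prpf38a 10.2 and 8.17 TPM, a ratio of 4.49 and 3.36. Prpf3 of the U4/U6 particle had 18.5 and 10.4 TPM. The lowest 3 by mean TPM were Prpf40b, with 8.22 and 5.25 TPM, Prpf31, also of the U4/U6 particle, with 7.15 and 5.81 TPM, and Prpf4, the partner of Prpf3, with 5.60 and 3.09 TPM.

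The 12 genes of Sm and snRNP-specific proteins had a median of 23.4 and 13.8 TPM. Snrpa, the A protein of the U1 particle, had 60.5 and 32.6 TPM and exceeded its U2 relative Snrpb2 (17.5 and 9.51 TPM) by 3.47-fold and 3.42-fold. Snrpe had 35.4 and 26.9 TPM, Snrpc, the C protein of that particle, 28.1 and 13.9 TPM, and Snrpg 23.8 and 15.3 TPM. The 3 lowest by mean TPM were genes of the ring, Snrpf (11.2 and 7.34 TPM), Snrpd2 (10.01 and 8.27 TPM) and Snrpd3 (7.80 and 7.83 TPM), while Snrpd1 of the same ring had 18.6 ± 6.22 TPM (SD, n = 2). Snrpb and Snrpn, which encode the near-identical ring proteins SmB and SmN, had 23.98 and 14.96 TPM and 18.3 and 13.7 TPM, so Snrpb was 1.31-fold and 1.09-fold the level of Snrpn, a gene best known from brain. Counts were not whole for 22 of the 71 genes, Snrpn, Snrpe and Hnrnpa1 among them, as happens where reads are divided between similar genes, and their levels depend on that division.

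Muscleblind messages were dominated by Mbnl1 (chromosome 3, 60472830 to 60629750), which had 193 and 118 TPM (156 ± 53.4, SD, n = 2) and was second only to Hnrnpk. Mbnl2 had 16.5 and 11.97 TPM and Mbnl3 15.3 and 10.9 TPM. Mbnl1 was 11.7-fold and 9.85-fold higher than Mbnl2, the widest gap between the first and second gene of the 12 families compared. In 11 of these 12 families both libraries gave the same order, the SR proteins being the other one.

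The libraries were then compared gene by gene, which shows how far each level varied from one library to the other. Estimated counts were tested with a two-sided exact binomial test against the ratio of library sizes scaled by TMM (a trimmed mean that sets the bulk of genes level), with Benjamini-Hochberg adjustment over the 11902 genes that had at least 10 counts. The test covers counting error only and compares these libraries, not conditions. No splicing gene of the 70 tested passed an adjusted p of 0.05 together with a 2-fold ratio, beside 5.12% of all tested genes with the higher value in replicate 2 and 2.20% with the higher value in replicate 1. Among the 8345 detected nuclear protein-coding genes the shares were 1.52% and 0.132%, and 0 of 70 is near these. The largest ratio was that of Hnrnph3, with 68 counts in replicate 1 and 94 in replicate 2, 1.55-fold higher in replicate 2 (log2 ratio 0.63, 95% Clopper-Pearson interval of the ratio 1.12 to 2.15, adjusted p = 0.0221 by the exact binomial test). At the other end Sf3b4 had 1414 and 958 counts, a log2 ratio of -0.39. Their median was 0.01 (log2 ratio), beside 0.01 over all tested genes.

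Without the 2-fold limit, 14 of 70 (20%) were higher in replicate 2 and 17 (24.3%) in replicate 1, beside 17.5% and 14.9% of all tested genes. Among detected nuclear protein-coding genes these shares were 17.4% and 16.4%. At an unadjusted p under 0.05 there were 39 of 70 (55.7%), beside 41.3% of all tested genes and 42.6% of detected nuclear protein-coding genes. By group, the 9 SF3A and SF3B genes gave 4 lower and 2 higher in replicate 2. The lower were Sf3b4, Sf3a2 (1532 and 1128 counts), Sf3a1 (2252 and 1658 counts) and Sf3a3 (920 and 704 counts). The higher were Sf3b1 (8777 and 8657 counts, 1.11-fold after TMM scaling) and Sf3b5 (182 and 213 counts, 1.31-fold). For Sf3b1 the direction rests on the scaling, since its counts before scaling were lower in replicate 2. The PRPF genes gave 5 higher and 3 lower in replicate 2, and the SR genes 1 higher, Srsf5, and 3 lower, Srsf2, Srsf10 and Srsf1. The hnRNPs A/B, C and D gave 0 higher and 2 lower, and the other hnRNPs 2 higher and 3 lower. Sm and snRNP genes gave 1 and 1, U2AF genes 2 and 0, and muscleblind genes 1 and 1. edgeR's negative binomial exact test called 0 of the 70 after adjustment and 0 at an unadjusted p under 0.05, but its spread (a coefficient of variation of 26.3%) was estimated from these same 2 libraries and holds the differences tested, so it does not bear on them. Scaled to the spike-in RNAs instead, all 70 were lower in replicate 2 past both limits, as were 11608 of the 11902 tested genes. The maturing red cell genes, higher in replicate 2 as described above, moved with the library, and their part in the small ratios of the splicing genes was not tested.

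**Figure D2:**
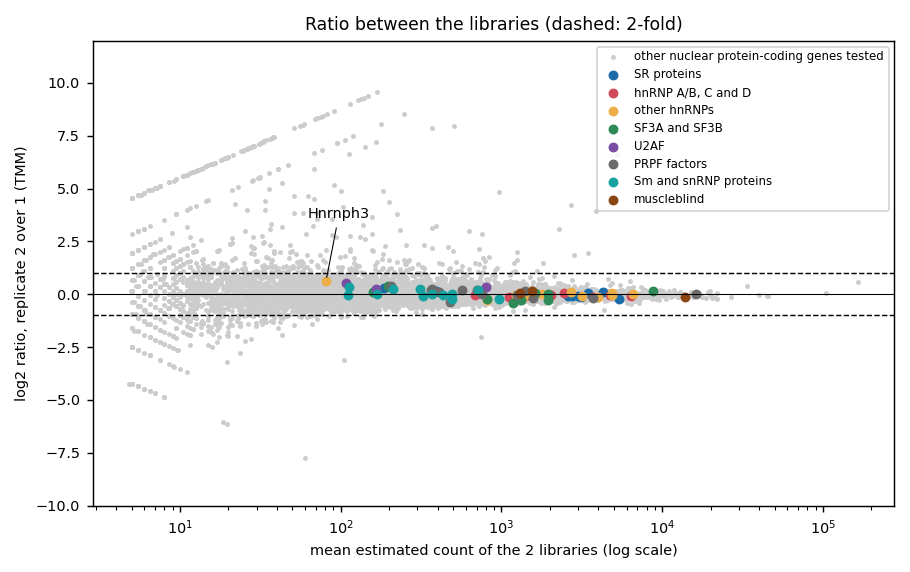
Log2 ratio of replicate 2 over replicate 1 after TMM scaling against the mean estimated count on a log axis, with the 70 tested splicing genes coloured by role, other nuclear protein-coding genes in grey and dashed lines at 2-fold. All 70 lie between the lines, from -0.39 to 0.63, while many grey points lie outside.

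The transcript tables divide each gene's level among annotated transcripts. The 71 genes had 421 transcripts, of which GENCODE M21 classes 207 as protein coding, 45 as nonsense-mediated decay, 112 as retained intron and 56 as processed transcript, and 1 was not matched. The decay and retained-intron models were shorter, with median lengths of 896 and 793 bases against 1915 for coding ones. A short model takes a larger share of TPM than of counts, so both are given, and all shares are model estimates from the deposited tables. The single most abundant transcript was a coding one by TPM in 59 of the 70 detected genes and by count in 64. The coding class could still hold the smaller part. In Srsf11 coding transcripts together held 28.8% and 28.9% of TPM, although the first was coding. In Hnrnph1 the first by TPM was coding, but processed transcripts held 77.9% and 73.4% of TPM (75.4% and 72.6% of counts). In Srsf10 processed transcripts held 44.4% and 58.1% of TPM (14.8% and 20.8% of counts). In 23 genes all of the level was on coding transcripts, which the annotation fixes, since these genes have no transcript of another class.

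Decay transcripts held a modest share of most of these genes. Over the 26 detected genes that have such a transcript the median share of TPM was 10.9% in replicate 1 and 9.62% in replicate 2 (6.40% and 3.47% of counts), beside 5.72% and 4.51% (3.04% and 2.43% of counts) over the 1876 detected nuclear protein-coding genes that have one. Summed over genes the order was the other way, with 11.3% and 9.03% of TPM in the 26 beside 13.1% and 11.9% in the 1876, and 6.96% and 6.20% of counts beside 10.1% and 9.22%. A share of at least 10% of TPM in both libraries was seen in 12 of the 26 (46.2%), beside 28.3% of the 1876, and a share of at least 10% of counts in 8 (30.8%), beside 24.1%. Those past 10% of TPM were 5 PRPF genes, 3 SR genes, 2 hnRNP genes, Sf3b1 and U2af1l4. Prpf39, a U1-associated protein, had the highest mean share of TPM, 47.0% and 56.8% of TPM (51.9% ± 6.95, SD, n = 2) and 48.4% and 58.3% of counts. Srsf3, an SR protein that also acts in export of messages, followed with 35.6% and 31.1% of TPM (27.3% and 22.5% of counts), and Srsf4 had 31.0% and 30.9% of TPM (13.2% and 12.8% of counts). Hnrnpd had 35.2% and 22.1% of TPM (23.1% and 14.3% of counts), but 13.5% and 34.5% of its TPM lay on the 1 transcript that was not matched, so its classes are incomplete. Prpf40b had 24.9% and 19.2% of TPM from few reads (191 and 221 counts for the whole gene). U2af1l4 had 55.0% and 38.7% of counts on decay transcripts, but M21 gives most of these to another gene, Gm49396: they held all of the 0.92 TPM in replicate 1 and 0.52 of the 0.67 TPM in replicate 2. Without them U2af1l4 did not reach 10%, and 11 of the 26 genes reached 10% of TPM in both libraries.

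For the 6 genes whose exon sequences are printed above, the decay and coding forms could be set side by side. Srsf3-201, with the longest exon, had 20.0 and 10.02 TPM, above the main coding transcript Srsf3-202 with 16.9 and 9.25 TPM, and in replicate 2 the decay form's deposited interval of 7.75 to 10.8 TPM includes the coding value. By counts the coding form was the higher, with 31.3% and 28.2% of the gene against 27.3% and 22.5% for the decay form. Prpf39-202 had 7.34 and 5.48 TPM against 8.29 and 4.17 TPM for Prpf39-201, so the order of the forms changed between the libraries. Prpf38b-204 had 6.10 and 5.08 TPM against 11.8 and 5.20 TPM for Prpf38b-201, and 22.7% and 32.8% of counts against 41.4% and 31.8%. These 3 genes thus had decay and coding forms of similar level in at least 1 library. In the other 3 the coding form was higher in both libraries. Sf3b1-208 had 12.1 and 9.63 TPM against 44.6 and 33.7 TPM, but only 1.42% and 1.56% of counts against 65.6% and 69.6%. Srsf6-201 had 3.24 and 1.84 TPM against 37.1 and 21.6 TPM, and Prpf3-203 had 1.41 and 1.29 TPM against 9.71 and 6.41 TPM. In 5 of the 6 genes the exon also lay inside a transcript annotated as retained intron, with summed levels of up to 34.5 and 22.2 TPM (Sf3b1), and reads within the exon cannot by themselves tell those forms apart. The deposited transcript length equalled the M21 length in 4 of the 6, the others being Srsf3-201 and Prpf38b-204.

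**Figure D3:**
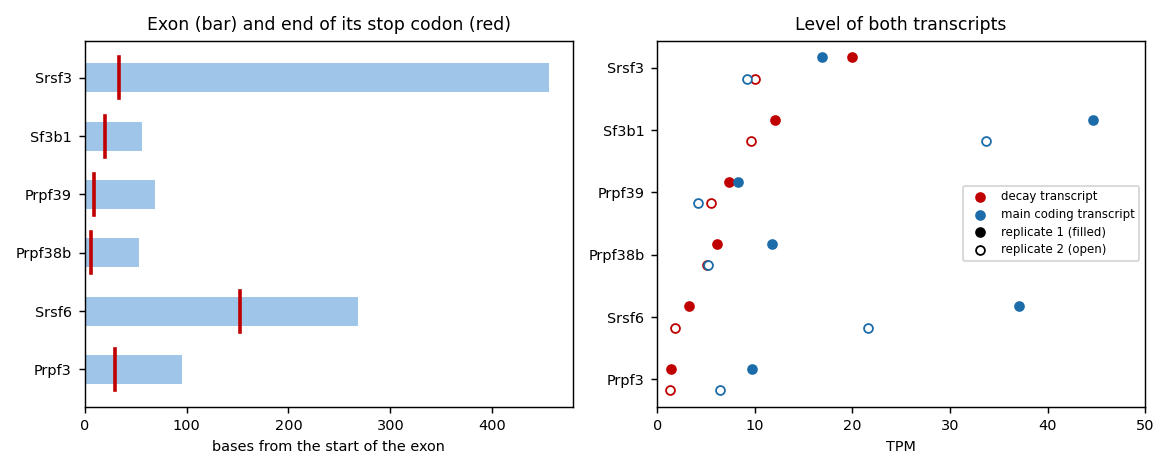
Left, length of each of the 6 exons in bases from its start, with the end of the stop codon in red; right, TPM of the decay transcript (red) and of the main coding transcript (blue), replicate 1 filled and replicate 2 open. Every stop lies nearer the start of its exon than its end except that of Srsf6 at base 152 of 268, and red and blue lie close together for Srsf3, Prpf39 and, in replicate 2, Prpf38b.

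Retained-intron transcripts, 112 models against 45, held more of the level than decay transcripts did. The libraries are of total RNA, and the part of unspliced RNA in these shares was not tested. Over the 37 detected genes that have one the median share was 23.1% and 27.1% of TPM (14.9% and 11.9% of counts), beside 15.99% and 17.6% of TPM (8.54% and 9.39% of counts) over 3736 detected nuclear protein-coding genes that have one. A share of at least 10% of TPM in both libraries was seen in 26 of the 37 (70.3%), beside 55.9%, and of counts in 20 (54.1%), beside 39.6%. Summed over all 70 detected genes, retained-intron transcripts held 19.6% and 19.9% of TPM and decay transcripts 5.20% and 4.17%. Among transcripts of annotation support level 1 or 2 alone, the mean decay share was 1.41% in place of 4.68%, and the retained-intron share 21.8% in place of 19.8%. Srsf11 had the highest share of counts, 60.3% and 61.3% (67.3% and 69.2% of TPM), and 3 of its retained-intron transcripts had between 14.7 and 16.6 TPM in replicate 1. Srsf5 followed by counts, with 54.2% and 60.2% (31.0% and 36.5% of TPM). Hnrnpk had 51.3% and 50.7% of TPM but 25.6% and 24.8% of counts, with a single 522-base model, Hnrnpk-215, listed at 92.9 and 59.5 TPM. Hnrnpu had 48.5% and 46.3% of TPM and only 7.87% and 8.33% of counts. Snrpd3 had 70.9% and 82.9% of TPM (31.5% and 47.4% of counts) and Snrpb2 61.9% and 48.4% (29.3% and 20.1% of counts), with 205 and 218 counts for Snrpd3 and 389 and 350 for Snrpb2. U2af1l4 had 43.6% and 71.1% of TPM (20.8% and 47.1% of counts), the widest difference between the libraries of the 6 genes highest in this share.

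**Figure D4:**
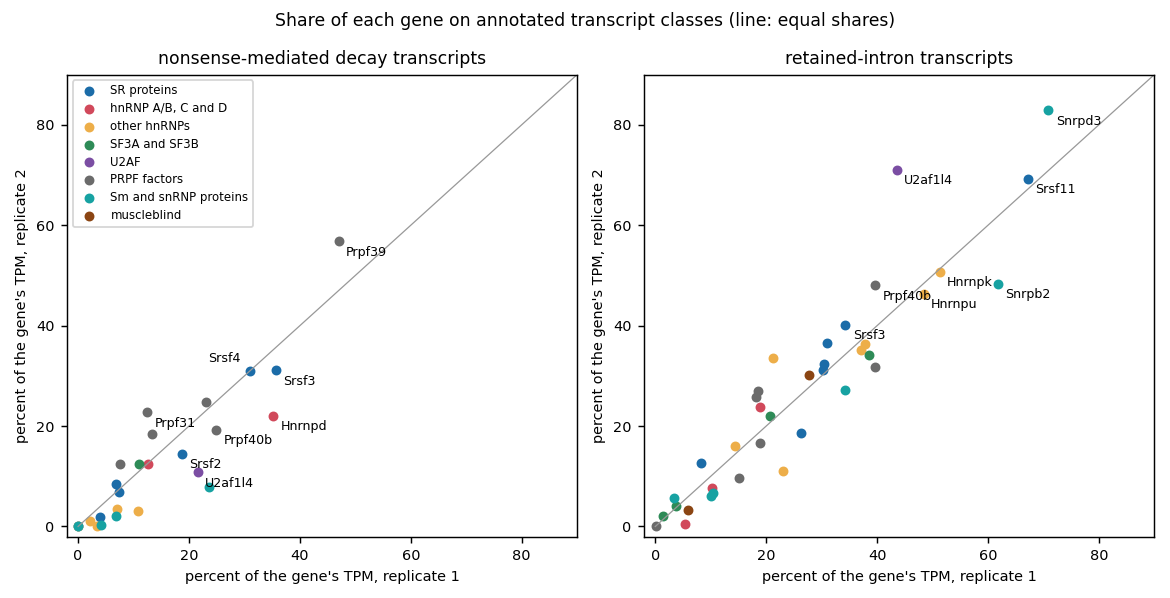
Percent of each detected gene's TPM on nonsense-mediated decay transcripts (left, 26 genes) and retained-intron transcripts (right, 37 genes), replicate 1 across and replicate 2 up, coloured by role with a line of equal shares. Prpf39 is highest on the left at 47.0% and 56.8%, Snrpd3 and Srsf11 are highest on the right, and U2af1l4 lies far above the line.

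Other genes of the same machinery were also widely expressed. Of 128 listed genes found in the files, 126 were detected, the exceptions being the SR protein kinase Srpk3, at 0 counts in both libraries, and Coil, the marker of Cajal bodies, with 1.31 and 0.90 TPM. Of the 127 tested, 0 passed the adjusted p with the 2-fold limit in either direction, beside 5.12% and 2.20% of all tested genes and 1.52% and 0.132% of detected nuclear protein-coding genes. An unadjusted p under 0.05 was found for 45 (35.4%), beside 41.3% of all tested genes and 42.6% of detected nuclear protein-coding genes. Without the 2-fold limit 19 (15.0%) were higher and 18 (14.2%) lower in replicate 2, beside 17.5% and 14.9% of all tested genes and 17.4% and 16.4% of detected nuclear protein-coding genes. The hnRNPs and regulators with other names had the highest median, 58.1 and 37.9 TPM over 27 genes, led by Ybx1 (484 and 309 TPM), Rbm25 (266 and 174 TPM) and Rbm39 (163 and 107 TPM). SR-related proteins and SR kinases had a median of 29.8 and 18.5 TPM over 20 genes, with the speckle proteins Srrm2 (217 and 150 TPM), Srrm1 (126 and 75.8 TPM) and Son (122 and 75.01 TPM) first. The list named for proteins of the U1, U5 and minor particles also holds factors outside them, such as Sf1, the branch point binding protein. Its median was 13.2 and 8.68 TPM over 38 genes. Sf1 was first at 120 and 68.6 TPM, with Luc7l2 (78.0 and 53.6 TPM) and Luc7l3 (58.9 and 31.9 TPM) next.

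Catalytic and Prp19-complex factors had a median of 11.4 and 8.41 TPM over 20 genes, with the helicase Ddx39b (96.7 and 56.8 TPM), Bcas2 (30.5 and 17.7 TPM) and Bud31 (24.2 and 20.8 TPM) highest. Genes for snRNP assembly had a median of 10.6 and 5.88 TPM over 13 genes, led by Strap (31.5 and 20.5 TPM), the methyltransferase Prmt5 (22.0 and 10.9 TPM) and Clns1a (16.9 and 12.3 TPM). All 10 decay factors were detected, with a median of 9.76 and 7.25 TPM and the kinase Smg1 (19.0 and 12.7 TPM) and Upf3b (18.8 and 10.5 TPM) among the 3 highest. Splicing regulators known from other tissues were mostly silent: 12 of 18 had 0 counts in both libraries, among them Rbfox1, Rbfox3, Srrm4 and Esrp2. Nova1 (4.66 and 3.70 TPM) and Ptbp2 (4.11 and 2.93 TPM) were the 2 detected, Rbfox2 had 0.53 and 0.34 TPM, and Celf4 passed the library comparison with 0 and 17 counts.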

How the data were processed

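Gene and transcript tables of 2 total RNA libraries of 1 group were read. The authors deposited, per the file headers, estimated counts that need not be whole (expected counts), TPM in maximum-likelihood and posterior-mean form, FPKM, the percent of each gene's TPM on each transcript, and the bounds of a credibility interval of TPM. The deposited file records name mm10 and GENCODE M4; for the aligner and the quantifier, the name is not given in the sources used. Names, types, exons and stop codons came from GENCODE M21 on GRCm38, matched on identifiers without version (42462 of 43346 genes).

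Levels are deposited TPM, detected at 1 or more in both libraries. The library comparison used estimated counts rounded to whole numbers, TMM from edgeR 4.0.16 (R 4.3.3), a prior count of 0.5 for log2 ratios, and the test and limits given above; Python 3.11.15, SciPy 1.17.1 and pandas 2.3.3 were used, and the comparison was tested on simulated data. Intervals, the p-values of the exact binomial test and the limit for 0 counts (3 counts) cover counting error only. The p-values compare these libraries and include no estimate of the spread between replicates.

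Named were, in each role group, the 4 genes with the highest and the 3 with the lowest mean TPM, members of families of 2 to 5 genes, the 6 highest shares of each transcript class, and the 3 highest genes of each other list; the other genes named were chosen after their values were seen. The members, groups and lists were chosen with earlier results of these data known. Alternatives were other level estimates, limits, scalings (DESeq2 1.42.0, spike-ins, totals), filters, a negative binomial test and each library alone. Sequence features of the proteins, and Qki, were not analysed here, and a few genes that these rules name are not reported here.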

Additional observations from a re-analysis of the deposited data

Results flagged for a closer look

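Estimated counts above the limit that a count of 0 allows (3 counts) appeared in rows outside the protein-coding genes, in 2 of the 4 processed pseudogenes whose names match the rule. Snrpert had 23.95 and 15.82 counts, against 301 and 323 for the similarly named coding gene Snrpe. Hnrnpa1l2-ps had 1.10 and 22.93 counts, against 2542 and 2349 for Hnrnpa1. None of these 4 pseudogene values is a whole number, and whether any came from the pseudogenes was not tested.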

How the results depend on the processing

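The number of detected genes was 66 to 70 under every other estimate and limit tried, and 70 in each library alone. Single libraries gave medians of 14.4 to 24.3 TPM for all 71 genes, 32.2 to 53.6 for SR proteins, 43.2 to 64.8 for hnRNP A/B, C and D, 42.4 to 65.2 for other hnRNPs, 15.1 to 25.9 for SF3A and SF3B, 7.47 to 9.50 for U2AF, 9.65 to 15.2 for PRPF, 13.8 to 23.4 for Sm and snRNP proteins and 11.97 to 16.5 for muscleblind. Rescaling TPM to nuclear protein-coding genes, which by construction raises all values, gave medians of 115.0 (all), 255.8 (SR), 325.5 (hnRNP A/B, C and D), 323.4 (other hnRNPs), 121.7 (SF3A and SF3B), 52.1 (U2AF), 74.6 (PRPF), 110.6 (Sm and snRNP) and 86.6 (muscleblind). FPKM gave 37.4, 37.2, 5.89 and 9.86 for hnRNP A/B, C and D, other hnRNPs, U2AF and muscleblind.

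A limit of 1.5-fold called 1 splicing gene, Hnrnph3, higher in replicate 2, beside 947 higher and 465 lower in replicate 2 of all 11902 tested genes. Scaling to spike-ins called 70, all lower in replicate 2, along with 11608 of 11902 genes. Under the 5 other scalings and filters 0 were called. Beside that, 360 to 666 genes were higher and 83 to 1021 lower in replicate 2, of 10103 to 14667 tested. The negative binomial test, which also called 0, takes its spread from the libraries it compares. The median log2 ratio was -0.52 with total counts, -4.49 with spike-ins, and -0.60 and -0.63 as TPM with pseudocounts of 1 and 0.1, and over all tested genes it was -0.52, -4.49, -0.48 and -0.61. Decay transcripts held 4.68% ± 0.731 of TPM (SD, n = 2; 4.17% to 5.20% in single libraries), 2.42% of counts, and 1.41% of TPM for transcripts of support level 1 or 2. Retained-intron transcripts held 19.8% ± 0.188 (19.6% to 19.9%), 13.1% and 21.8%. The order of paralogues was kept in 11 or 12 of 12 families. No paired analysis was possible because there is 1 group, and the library comparison has no value with a library left out.

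Limits are set by 2 libraries from 1 ng of RNA, transcript shares that are model estimates, and transcript types from a later annotation than that used for counting. Of the 71 genes 5 had a TPM outside their deposited interval in a library: Srsf12, Hnrnpab, Hnrnpul1, U2af1l4 and Prpf8.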
